A study of Mus musculus with 24 samples.

Results

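The nuclear genes for the mitochondrial respiratory chain were examined in dermal papilla (DP) cells, the mesenchymal niche at the base of the hair follicle, with and without Hdac1 and Hdac2. They were taken by name: every gene whose symbol began with Nduf, Uqcr, Atp5 or Cox4 to Cox8, or was Sdha, Sdhb, Sdhc or Sdhd. The rule found 92 of 25755 genes. By name alone, 38 were placed in complex I, 7 among complex I assembly factors (Ndufaf1 to Ndufaf7) and 4 in complex II. Another 8 were placed in complex III, 18 in complex IV and 17 in complex V. The 17 include Atp5s and Atp5sl, the second described only as ATP5S-like. Membership did not use any measured value.

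The libraries are bulk RNA-seq of YFP-positive DP cells, sorted by flow cytometry and then sorted again. Each of 8 groups has 3 biological replicates, namely control and dM1/2 at P20 (the first telogen, the resting stage of the hair cycle), P24 (early anagen, the growth stage), P28 (mid anagen) and P60 (the second telogen). The dM1/2 mice carry Corin-Cre, whose promoter is active in the DP after birth, with Hdac1 Flox/Flox and Hdac2 Flox/Flox, alleles from which Cre deletes both histone deacetylase genes. Controls also carry Corin-Cre with at least 1 floxed Hdac allele, and some may be homozygous for Hdac1 or Hdac2 and heterozygous for the other gene, but the labels do not say which library has which genotype. All groups carry a ROSA26 EYFP reporter, and the Cre line is FVB while the floxed lines are C57BL/6J. Values are normalized reads, that is reads on a gene divided by the library's size factor.

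Oxidative phosphorylation is carried out by 5 complexes of the inner mitochondrial membrane. Complexes I and II take electrons from NADH and succinate, complex III passes them to cytochrome c, complex IV (cytochrome c oxidase) gives them to oxygen, and complex V (ATP synthase) uses the resulting proton gradient to make ATP. Most subunits are nuclear genes and are imported, while 13 core subunits are made from mitochondrial DNA. Several complex IV subunits exist as tissue-specific isoforms, such as the testis form Cox6b2, the muscle forms Cox6a2, Cox7a1 and Cox8b, and the form Cox4i2 found in lung and vascular cells.

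Before the results, 3 features of the libraries need stating. The P20 and P60 libraries hold 8171944 to 13369732 reads on genes and the anagen libraries 35469841 to 49331751, and Xist, the RNA of the inactive X chromosome, stood at 8113 normalized reads or more in all telogen libraries and at 3.91 or less in all anagen libraries, so stage cannot be told apart from sex and depth. Of the targeted genes, Hdac1 was measured at 675, 668 and 668 normalized reads in P24 controls and 209, 188 and 116 in P24 dM1/2, with no overlap. At P28 it stood at 214, 529 and 105 in the libraries labelled control and at 190.2, 149 and 126 in dM1/2, so the library labelled P28 control 3 was below every dM1/2 library. Hdac2 reads were not lower in dM1/2 than in controls at either anagen age, at 1091 to 1282 against 925 to 1117. The library labelled P28 control 2 had the lowest DP marker level of the anagen controls, and P28 counts are therefore also given without each of these libraries.

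In control DP the chain genes were well expressed. Per kilobase of mRNA, the catalytic subunit of ATP synthase Atp5b stood highest, at 4142 normalized reads per kb on average over 12 control libraries, followed by Cox4i1 at 3838 and Atp5a1 at 2877. Their ranges over control libraries overlapped, from 3269 to 5717 for Atp5b, 2804 to 4769 for Cox4i1 and 2085 to 3689.6 for Atp5a1. At the other end, Cox8c had no read in any library, and Cox6a2, Cox7b2 and Cox8b had 14, 14 and 36 reads in all 24 libraries together. These 4 genes were below the filter of a mean of 10 normalized reads in every comparison. With Cox7a1 also under the filter at P24 and in the dM1/2 series from P24 to P28, 87 or 88 of the 92 genes were tested in each comparison.

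At P28, 16 of 88 tested chain genes were higher in dM1/2 than in controls and 0 were lower, at an adjusted p under 0.05 with limma. Against this, 20.0% of all genes tested were higher and 15.6% lower, beside 18.2% and 0% of the chain genes. The count tests on the recovered reads gave 17 higher and 0 lower with edgeR and 17 higher and 1 lower with DESeq2, which called 34.8% and 38.2% of all genes in either direction. At P24, 6 of 87 were higher and 0 lower, beside 14.8% of all genes higher and 11.8% lower. The 6 were Cox6b2, Cox7a2l, Uqcrfs1, Ndufa10, Ndufaf4 and Atp5g1, and all but Atp5g1 also passed at P28. The 11 genes that passed at P28 and not at P24 were Ndufa8, Ndufa12, Ndufb5, Ndufb6, Ndufv1, Ndufaf2, Sdhb, Uqcrh, Cox5a, Cox7a2 and Atp5g3. The share of chain genes that were higher was thus near that of all genes at P28 and below it at P24. In log2 fold change, the chain genes had a median of 0.11 at P24 and 0.26 at P28, where the median over all genes tested was -0.01 and 0.00.

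The libraries behind the P28 count were not alike. Without dM1/2 replicate 1, whose chain genes were closest to the controls, 29 genes passed, all higher. Without control 1, dM1/2 2 or dM1/2 3, 5 passed in each case, all higher. Without the library labelled control 2 the count was 12, of which 11 were higher and 1 lower, and without the library labelled control 3 it was 20. At P24, leaving out 1 library gave 2 to 6 genes, with 2 without control 2 and 3 without dM1/2 3. Shares of all genes in fits with a library left out are not given here. Changes in such counts therefore cannot be read as particular to the chain genes, in this or later comparisons.

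**Figure D1:**
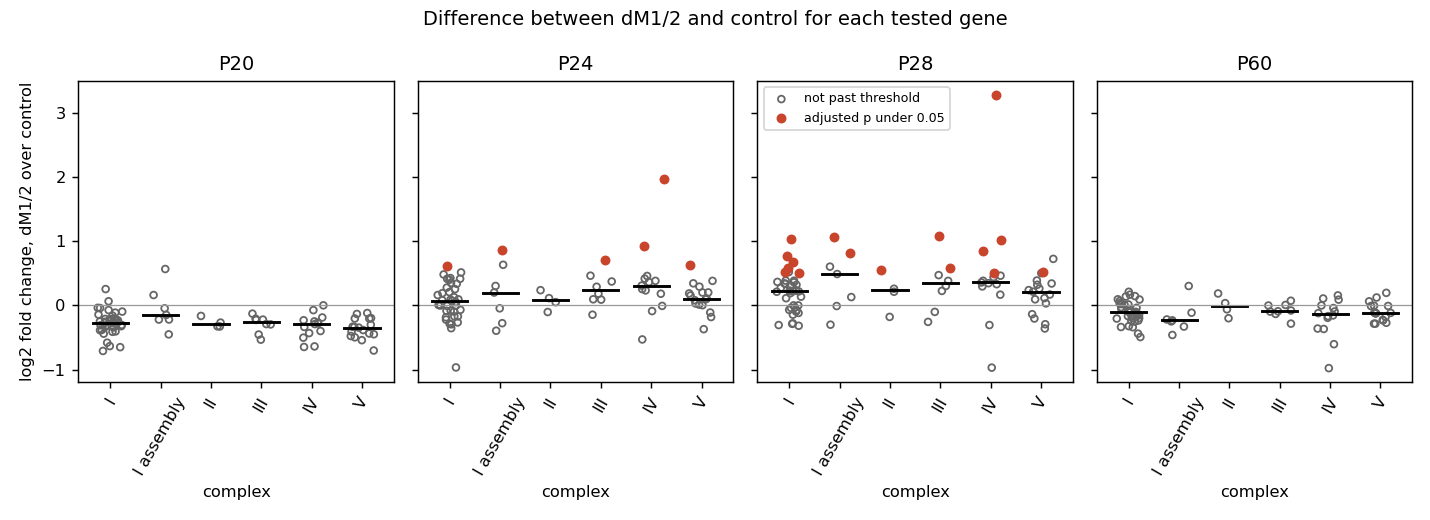
Log2 fold change of dM1/2 over control (vertical axis) for each tested chain gene at P20, P24, P28 and P60, by complex, with filled red points for genes past an adjusted p of 0.05 and black bars for the median of each complex. Red points appear at P24 (6) and P28 (16) and all lie above 0, with Cox6b2 far above the rest, while at P20 most genes lie below 0 and none passed.

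Cox6b2 showed the largest difference of all chain genes tested at both anagen ages. It encodes the testis isoform of subunit 6B of cytochrome c oxidase, a small subunit on the intermembrane-space side of the complex, and lies at chr7:4751792-4753094, minus strand (mm10), with no other annotated gene over its exons. The ubiquitous counterpart Cox6b1 lies on the same chromosome at chr7:30616861-30626151, minus strand. The promoters of the pair are shown because the isoforms differ in their response, together with that of Ndufaf4, an assembly factor gene that also rose at both anagen ages. Each runs from 250 bases before to 50 bases after the RefSeq start site (GRCm38.p6), 5′ to 3′ on the gene's strand, with capitals marking a match to TGCGCA (the half-site of NRF1, a regulator of respiratory genes) or CCGGAAG (an ETS core bound by GABPA, also known as NRF2), either strand counted.
Cox6b2 (chr7:4753045-4753344, minus strand): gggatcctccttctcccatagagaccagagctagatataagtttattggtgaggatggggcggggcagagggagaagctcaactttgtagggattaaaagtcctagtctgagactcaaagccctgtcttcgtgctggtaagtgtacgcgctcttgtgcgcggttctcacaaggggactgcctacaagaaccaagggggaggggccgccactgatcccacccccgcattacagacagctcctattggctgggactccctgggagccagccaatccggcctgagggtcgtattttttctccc
Cox6b1 (chr7:30626065-30626364, minus strand): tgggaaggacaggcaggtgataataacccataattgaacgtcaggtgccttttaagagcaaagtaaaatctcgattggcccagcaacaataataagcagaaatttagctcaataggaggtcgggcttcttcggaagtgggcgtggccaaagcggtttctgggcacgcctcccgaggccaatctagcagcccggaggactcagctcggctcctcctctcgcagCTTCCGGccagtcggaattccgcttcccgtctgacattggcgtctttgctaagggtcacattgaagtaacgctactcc
Ndufaf4 (chr4:24897833-24898132, plus strand): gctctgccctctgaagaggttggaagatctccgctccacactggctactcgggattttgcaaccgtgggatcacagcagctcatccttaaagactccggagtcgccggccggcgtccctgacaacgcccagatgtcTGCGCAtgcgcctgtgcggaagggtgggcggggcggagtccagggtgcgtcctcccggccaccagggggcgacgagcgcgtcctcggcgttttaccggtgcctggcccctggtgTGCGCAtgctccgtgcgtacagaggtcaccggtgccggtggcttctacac
The Cox6b2 window holds neither motif and 10 CpG dinucleotides, the Cox6b1 window holds 1 ETS match and 17 CpG, and the Ndufaf4 window holds 2 NRF1 half-sites and 28 CpG. A promoter entry was matched for 76 of the 92 genes, with a median of 19.5 CpG, beside 13 for all protein-coding promoters. The NRF1 half-site was found in 19 of these 76 windows (25%), beside 10.1% of 17492 protein-coding promoters, and the ETS core in 16 (21.1%), beside 11.9%. A match describes the letters only, and factor binding was not measured.

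Cox6b2 stood at 181, 155 and 245 normalized reads in P24 controls and at 634, 702 and 935 in P24 dM1/2. At P28 it stood at 111, 44.2 and 136 in controls and at 741, 962 and 891 in dM1/2. Every dM1/2 library was above every control library at both ages, and the separation did not depend on the libraries labelled P28 control 2 or 3. The log2 fold change was 1.96 ± 0.22 (SE) at P24, a fold of 3.9 (adjusted p = 0.00167, limma, n = 3 per group), and 3.28 ± 0.40 (SE) at P28, a fold of 9.73 (adjusted p = 0.00148). Over 16 alternatives of test, processing or library left out, the P28 log2 fold change ran from 2.80 to 3.60. Its size thus varied, with P28 control 2 the lowest control. Whether the difference was larger at P28 than at P24 was not settled, at a difference of 1.32 ± 0.50 (SE) in log2 (adjusted p = 0.298).

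In telogen Cox6b2 did not separate the genotypes. At P20 the values were 206, 179 and 158 in controls and 184, 208 and 152 in dM1/2, a log2 fold change of 0.00 ± 0.19 (SE) (adjusted p = 0.999, limma). At P60 they were 69.3, 136 and 179.8 and 55.5, 90.5 and 155, a log2 fold change of -0.37 ± 0.47 (SE) (adjusted p = 0.986). The anagen effect exceeded the telogen effect by 2.81 ± 0.39 (SE) in log2 (adjusted p = 4.48e-05, limma over all 24 libraries).

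Cox6b1 did not follow. It stood at 945, 956 and 1037 normalized reads in P28 controls and 1025, 1496 and 1355 in P28 dM1/2, with an overlap at the lower dM1/2 value and a log2 fold change of 0.38 ± 0.16 (SE) (adjusted p = 0.107, limma). Per kilobase of mRNA, Cox6b2 made up 4.66% to 12.2% of the pair's level in P28 controls and 40.4% to 43.3% in P28 dM1/2. In P24 the shares were 16.2% to 28.5% and 40.1% to 45.2%. In the telogen groups of both genotypes the share lay between 6.18% and 22.8%, so the minor isoform approached the level of the major isoform in the anagen mutant.

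**Figure D2:**
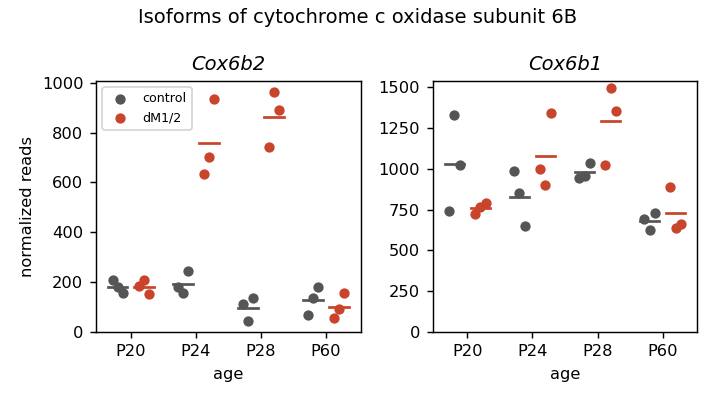
Normalized reads (vertical axis, from 0) of Cox6b2 and Cox6b1 in each of 24 libraries by age, controls in grey and dM1/2 in red, with bars at group means (n = 3). Cox6b2 in dM1/2 stands at 634 to 962 in anagen, above the anagen control range of 44.2 to 245, while the genotypes of Cox6b1 overlap at every age.

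Among the other complex IV genes, Cox7a2l, Cox5a and Cox7a2 also rose at P28. Cox7a2l, also known as SCAF1, has been described as linking complexes III and IV in supercomplexes, a function that was not measured in these mice. It stood at 1298, 997 and 814 normalized reads in P24 controls and 1616, 1806 and 2479.5 in dM1/2, and at 1497, 1469 and 1174 and 2276, 3656 and 2597 at P28. The groups did not overlap at either age, with log2 fold changes of 0.93 ± 0.22 (SE) (adjusted p = 0.0188, limma) and 1.02 ± 0.20 (SE) (adjusted p = 0.00882). Cox5a, a matrix-facing subunit, stood at 113, 138 and 132 in P28 controls and 180.4, 259 and 259 in dM1/2, a log2 fold change of 0.84 ± 0.20 (SE) (adjusted p = 0.0179). The group ranges did not overlap at P28, and at P24 Cox5a did not pass, at 0.42 ± 0.21 (SE) (adjusted p = 0.176). Cox7a2, the general form of subunit 7A, rose by less, at 0.50 ± 0.14 (SE) (adjusted p = 0.0286). Of 16 alternatives in test, pseudocount, scaling, filter, depth, block or library left out, the call was lost under 6 for Cox7a2 (adjusted p up to 0.108), 3 for Cox5a at P28 (up to 0.0776), 3 for Cox7a2l at P24 (up to 0.0623) and 0 for Cox7a2l at P28. The major subunits Cox4i1 (0.36 ± 0.16 (SE), adjusted p = 0.132), Cox6a1 (0.35 ± 0.16 (SE), adjusted p = 0.148) and Cox8a (0.46 ± 0.21 (SE), adjusted p = 0.136) did not pass at P28.

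Complex III was led by Uqcrfs1, the Rieske iron-sulfur protein that takes electrons from ubiquinol. It stood at 610.1, 566 and 568 normalized reads in P24 controls and at 769, 888 and 1232 in dM1/2. At P28 it stood at 599, 536 and 477 in controls and at 922, 1388 and 1153 in dM1/2. Neither age showed an overlap, and the log2 fold changes were 0.70 ± 0.18 (SE) (adjusted p = 0.0257, limma) and 1.09 ± 0.18 (SE) (adjusted p = 0.00439). The P24 call was lost under 3 of 16 alternatives (adjusted p up to 0.0828) and the P28 call under 0. The hinge protein gene Uqcrh also rose at P28, while the core gene Uqcrc1 did not pass, at 0.38 ± 0.15 (SE) (adjusted p = 0.0981).

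In complex I, 6 of 38 genes rose at P28 (15.8%), and of its assembly factors 2 of 7 (28.6%), beside the 20.0% of all genes. Ndufa10, an accessory subunit, stood at 668, 612 and 727 normalized reads in P28 controls and 1086, 1706 and 1379.8 in dM1/2, with no overlap and a log2 fold change of 1.03 ± 0.18 (SE) (adjusted p = 0.00568, limma). At P24 its values were 749, 683 and 638 and 901, 927 and 1401, a log2 fold change of 0.61 ± 0.19 (SE) (adjusted p = 0.0453), which lost the threshold under 9 of 16 alternatives (adjusted p up to 0.121). Ndufv1, the subunit that binds NADH and FMN, stood at 939.5, 871 and 1140.0 in P28 controls and 1362, 2027 and 1688 in dM1/2, a log2 fold change of 0.77 ± 0.18 (SE) (adjusted p = 0.0164), which was lost under 3 of 16. Ndufs1, the largest iron-sulfur subunit, did not pass at P28, at 0.36 ± 0.13 (SE) (adjusted p = 0.078). The other complex I genes that passed at P28 were Ndufa8, Ndufa12, Ndufb5 and Ndufb6, with log2 fold changes from 0.50 to 0.68.

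The assembly factor Ndufaf4 stood at 152, 149 and 124 normalized reads in P24 controls and 233, 248 and 294 in dM1/2, and at 107, 125 and 175 and 223, 296 and 193 at P28. The groups did not overlap at either age, and its log2 fold changes were 0.86 ± 0.17 (SE) (adjusted p = 0.00935, limma) and 0.81 ± 0.25 (SE) (adjusted p = 0.0435). The P24 call held under 16 of 16 alternatives, while the P28 call was lost under 8 of 16 (adjusted p up to 0.151). Ndufaf2, a late-acting assembly factor of low level, stood at 45.2, 52.5 and 29.6 in P28 controls and 78.5, 91.7 and 92.7 in dM1/2. Its log2 fold change was 1.06 ± 0.28 (SE) (adjusted p = 0.0237), and its exons overlap those of another gene on the opposite strand. That call was lost under 6 of 16 alternatives (adjusted p up to 0.0937).

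**Figure D3:**
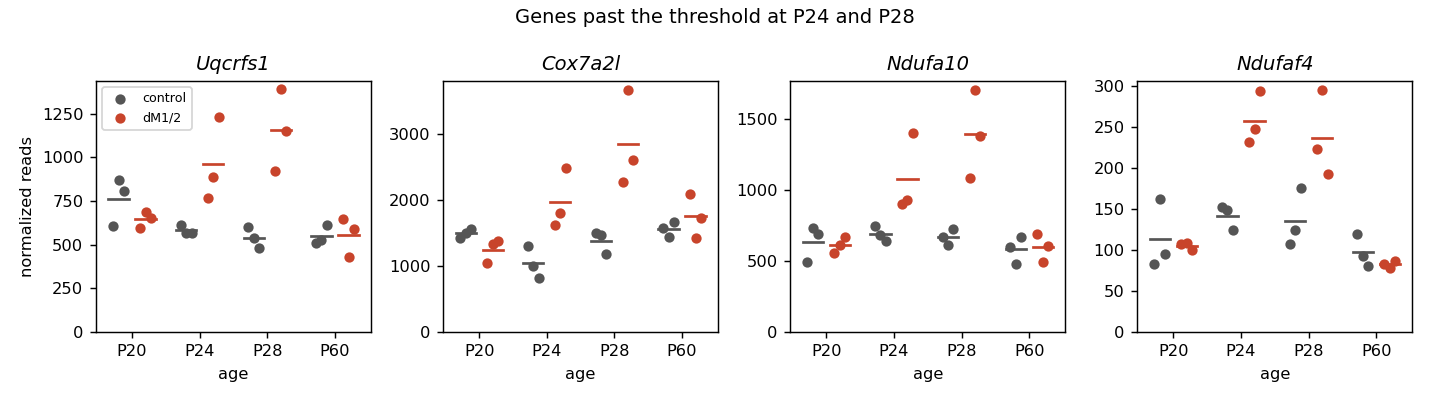
Normalized reads (vertical axes, from 0) of Uqcrfs1, Cox7a2l, Ndufa10 and Ndufaf4 in each of 24 libraries by age, controls in grey and dM1/2 in red, with bars at group means (n = 3). In all 4 genes the dM1/2 libraries lie above the controls at P24 and P28, and the genotypes overlap at P60. At P20 they overlap except for Cox7a2l, where dM1/2 (1041, 1323 and 1372) lies below the controls (1422, 1493 and 1560) without passing the threshold.

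Complex II contributed 1 of its 4 genes at P28 (25%), beside the 20.0% of all genes. Sdhb, its iron-sulfur subunit, rose at P28, from 542, 637 and 548 normalized reads in controls to 702, 917 and 939 in dM1/2 (0.56 ± 0.15 (SE), adjusted p = 0.0292, limma). The flavoprotein gene Sdha lay on the other side of 0 without passing, at -0.18 ± 0.13 (SE) (adjusted p = 0.342). In complex V, 1 of 17 genes passed at each anagen age (5.88%), below the 14.8% of all genes higher at P24 and 20.0% at P28. The genes that passed, Atp5g1 and Atp5g3, both encode the identical mature subunit c of the proton-driven rotor. Atp5g1 passed at P24, with 647, 604 and 510.1 in controls and 851, 781 and 1127 in dM1/2 (0.64 ± 0.17 (SE), adjusted p = 0.0303). Atp5g3 passed at P28, with 1167, 1189 and 1373 and 1507, 1887 and 1947 (0.51 ± 0.14 (SE), adjusted p = 0.0302). These calls were lost under 4 of 16 alternatives for Sdhb (adjusted p up to 0.109), 5 for Atp5g1 (up to 0.086) and 5 for Atp5g3 (up to 0.113). The alpha and beta subunit genes did not pass at P28, with Atp5a1 at 0.26 ± 0.17 (SE) (adjusted p = 0.286) and Atp5b at 0.39 ± 0.19 (SE) (adjusted p = 0.152).

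Summed over the members of each complex, levels moved by less than Cox6b2. At P28 the complex IV sum came to 11055 ± 334 (SD, n = 3, in normalized reads) for controls and 16139.7 ± 2959 in dM1/2, with ranges of 10678 to 11316 and 12881 to 18657. The complex III sum was 5626 ± 152 in controls and 7613 ± 1292 in dM1/2, the complex I sum 17951 ± 1114 and 21179 ± 3443, and the complex II sum 4713 ± 374 and 5076 ± 676. The complex V sum was 26711 ± 1189 and 32066 ± 5604, and here the lowest dM1/2 library, at 25652, was below the lowest control, at 25903. The sums of complexes III and IV did not overlap between the genotypes at P28, and those of complexes I, II and V did.

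The chain genes shifted together from library to library. Relative to the mean of each gene over 24 libraries, their median log2 level was 0.04, 0.03 and 0.12 in P28 controls and 0.06, 0.49 and 0.41 in P28 dM1/2, so that dM1/2 1 lay within the control range and the other 2 mutants lay above it. At P24 the medians were 0.23, 0.09 and -0.12 in controls and 0.09, 0.02 and 0.53 in dM1/2, with only dM1/2 3 outside the control range. Other lists carried a like offset. The median of 76 genes of the mitochondrial ribosome was 0.15, 0.54 and 0.40 in the P28 dM1/2 libraries and 0.50 in P24 dM1/2 3, and that of 77 genes of the cytosolic ribosome was 0.20, 0.76 and 0.47 and 0.48. The part of this common offset in the chain gene results was not tested.

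**Figure D4:**
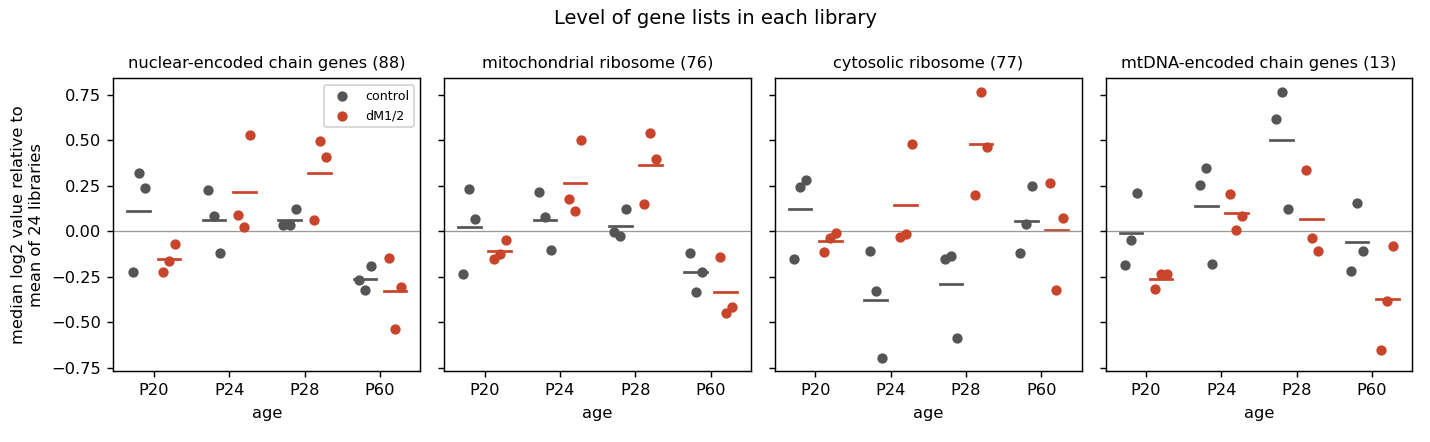
Median log2 level relative to the 24-library mean (vertical axis) of the nuclear-encoded chain genes, the mitochondrial ribosome, the cytosolic ribosome and the chain genes of mitochondrial DNA, 1 point per library by age, controls in grey, dM1/2 in red, bars at group means (n = 3). The first 3 lists rise in P28 dM1/2 2 and 3 and in P24 dM1/2 3, while the genes of mitochondrial DNA are lower in P28 dM1/2 2 and 3 than in the P28 controls. For the nuclear-encoded chain genes, P28 dM1/2 1 lies within the control range.

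Genes around the chain were counted in the same fit. Of the 13 chain genes of mitochondrial DNA, 0 were higher and 1 was lower at P28, mt-Cytb, the cytochrome b of complex III. It stood at 15584, 15803 and 12876 normalized reads in controls and 11609.6, 8966 and 8592 in dM1/2 (-0.61 ± 0.20 (SE), adjusted p = 0.0487, limma), and 12 of the 13 had a fold change below 0. The median log2 fold change of these 13 genes was -0.47, beside 0.26 for the nuclear-encoded genes. The medians of the nuclear and mitochondrial subunits thus lay on opposite sides of 0 at P28, although a single gene of the second set passed. At P20, P24 and P60 the mitochondrial median was -0.26, -0.06 and -0.36, beside -0.27, 0.11 and -0.12 for the nuclear-encoded genes. A mitochondrial median below 0 was therefore not particular to P28, and in telogen both medians lay below 0.

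Of 12 regulators of mitochondrial biogenesis, 3 were higher (25%) and 1 lower (8.33%) at P28, beside 20.0% and 15.6% of all genes. Ppargc1b, a coactivator of respiratory genes, stood at 77.4, 53.2 and 67.5 normalized reads in controls and 229, 185 and 175 in dM1/2 (1.56 ± 0.22 (SE), adjusted p = 0.00231, limma). Its partner Esrra, an orphan nuclear receptor, stood at 233, 210.1 and 247 and 473, 555 and 483 (1.13 ± 0.14 (SE), adjusted p = 0.00144). Tfam, which packages and transcribes mitochondrial DNA, stood at 292, 271 and 301 and 456, 519 and 503 (0.77 ± 0.12 (SE), adjusted p = 0.00412). In these 3 genes no dM1/2 library overlapped a control. Gabpa was the regulator that fell (-0.59 ± 0.12 (SE), adjusted p = 0.0111), and Nrf1 did not pass (-0.14 ± 0.16 (SE), adjusted p = 0.547).

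At P28, 5 of 13 genes of the tricarboxylic acid cycle rose (38.5%) and 0 fell, led by Fh1 (1.11 ± 0.21 (SE)), Idh3a (1.10 ± 0.17 (SE)) and the citrate synthase gene Cs (0.90 ± 0.15 (SE)). Of 16 glycolysis genes, 10 rose (62.5%) and 0 fell, led by the aldolase gene Aldoc (5.36 ± 0.43 (SE)), Pfkp (1.63 ± 0.31 (SE)) and the glucose transporter gene Slc2a1 (1.14 ± 0.11 (SE)). Of 30 tested assembly factors that carry other names, 9 rose (30%) and 2 fell, with Sdhaf3 (1.15 ± 0.22 (SE)), Bcs1l, which inserts the Rieske protein into complex III (1.12 ± 0.19 (SE)), and Nubpl, which delivers iron-sulfur clusters to complex I (1.08 ± 0.23 (SE)), the furthest from 0. Of 76 mitochondrial ribosome genes 15 rose (19.7%) and 2 fell, a share near the 20.0% of all genes, and of 77 cytosolic ribosome genes 52 rose (67.5%) and 0 fell, the highest being Mrps6 (1.84 ± 0.25 (SE)) in the first set and Rps19 in the second. Markers also differed between the genotypes. Of 12 DP markers, 7 were lower (58.3%) and 0 higher at P24, beside 11.8% of all genes lower. At P28, 6 were lower (50%) and 2 higher (16.7%), beside 15.6% and 20.0% of all genes. The summed level of the 12 DP markers was 345581 to 407813 normalized reads in P24 controls and 156946 to 186353 in dM1/2. At P28 it was 179823 to 485842 and 125960 to 134976. The part of this marker difference in the chain gene results was not tested. Bulk RNA alone cannot tell fewer cells of a type from less RNA per cell. By in situ hybridization, the authors reported lower Fgf7, Fgf10 and Rspo3 in the mutant DP. They also counted more DP cells per follicle in dM1/2 during anagen.

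In telogen no chain gene passed between the genotypes. At P20, 0 of 88 did with limma, where 0.433% of all genes were called in either direction. With edgeR 0 passed, with DESeq2 2 passed, both lower (6.42% of all genes in either direction), and 14 were at an unadjusted p under 0.05 (19.8% of all genes). The fold change was above 0 for 5 of the 88 genes (49.3% of all genes), and the median was -0.27, beside -0.01 for all genes. The controls differed among themselves: their library medians were -0.22, 0.32 and 0.24, so that control 1 stood at the level of the mutants, at -0.23, -0.16 and -0.07. Without control 1, 27 genes passed, all lower in dM1/2, and the share of all genes in that fit is not given here. At P60, 0 of 88 passed with limma, edgeR and DESeq2, and 0 at an unadjusted p under 0.05, while 0.0% of all genes were called with limma, 0.228% by DESeq2 and 3.74% at an unadjusted p under 0.05. The median was -0.12, beside 0.02 for all genes. The P60 libraries are also the shallowest.

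When the effect in anagen (mean of P24 and P28) was set against that in telogen (mean of P20 and P60) over all 24 libraries, 28 of 88 chain genes passed, all with the more positive effect in anagen (31.8%). Over all genes, 16.1% passed in that direction and 14.1% in the other. The libraries are those of the comparisons at each age, so the counts are not independent of them. Complex IV gave 8 of 14 genes, complex I 9 of 38, complex V 5 of 17, complex III 3 of 8, the assembly factors 2 of 7 and complex II 1 of 4. After Cox6b2, the genes with the smallest adjusted p were Uqcrfs1 (1.01 ± 0.19 (SE), adjusted p = 5.12e-04, limma), Cox7a2l (1.03 ± 0.20 (SE), adjusted p = 7.07e-04) and Cox5a (1.03 ± 0.22 (SE), adjusted p = 0.00149). Of the 28, 12 had passed at neither P24 nor P28, among them Cox6b1, Atp5b and Ndufs1. The part of lower telogen values in dM1/2 cannot be told apart from the anagen rise in this contrast, for these or the other genes. Cox5a stood at 126, 170 and 152 normalized reads in P20 controls and 127, 102 and 102 in P20 dM1/2. At P60 it stood at 109, 119 and 71.5 in controls and 65.6, 80.5 and 82.4 in dM1/2. Leaving out 1 library gave 16 to 40 genes, with 40 without P20 control 1 and 16 without P24 dM1/2 3 or P28 dM1/2 2.

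Between P24 and P28, no chain gene changed in controls, with 0 of 88 by limma, edgeR and DESeq2 where 1.46% of all genes passed in either direction with limma. At an unadjusted p under 0.05 it was 1, beside 18.6% of all genes. In dM1/2, 0 of 87 passed by limma and edgeR, where 2.67% of all genes passed with limma, while DESeq2 called 1 (6.45% of all genes) and 3 were at an unadjusted p under 0.05 (16.8%). The difference of these changes passed for 0 of 88 genes by limma, edgeR and DESeq2, where 0.707% of all genes passed with limma, and 1 was at an unadjusted p under 0.05 (11.9%). The Cox6b2 values above contain the largest of these changes in controls, at -1.11 ± 0.44 (SE) (adjusted p = 0.245).

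Chain genes also differed between the anagen and telogen controls, which differ in sex and depth as well as stage. Of the 88 tested, 16 were higher in anagen and 3 lower, beside 23.8% and 21.9% of all genes. Ndufa4, counted with complex I by its name but known as a subunit of complex IV, stood at 591 to 724 normalized reads in the 6 anagen controls and 279 to 641 in the 6 telogen controls, a difference of 0.82 ± 0.16 (SE) in log2 (adjusted p = 0.00191, limma). The ranges overlapped through P20 control 2. Cox4i2, the oxygen-sensitive form of subunit 4, stood at 212, 177 and 293 at P24 and 204, 85.8 and 140.3 at P28, against 67.0, 100.1 and 86.0 at P20 and 50.4, 45.3 and 55.3 at P60. Its difference was 1.41 ± 0.22 (SE) (adjusted p = 5.05e-04), and P28 control 2 was the anagen library within the telogen range. In dM1/2 it stood at 78.0, 53.6 and 76.7 at P28, below all 3 controls, without passing (-0.97 ± 0.35 (SE), adjusted p = 0.0693). Atp5k, the e subunit at the dimer interface of complex V, and Sdha completed the genes with the smallest adjusted p, at 1.06 ± 0.21 (SE) (adjusted p = 0.00249) and 0.43 ± 0.09 (SE) (adjusted p = 0.00377).

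Ndufa4l2, a hypoxia-inducible relative of Ndufa4 that is also a marker of pericytes, went the other way. It stood at 3530.1, 2957 and 3077 normalized reads in P20 controls and 1230.0, 1969 and 1547 in P60 controls, against 641, 721 and 368 at P24 and 520.2, 2518 and 124 at P28. The library labelled P28 control 2 stood within the telogen range. The difference between anagen and telogen was -2.01 ± 0.55 (SE) in log2 (adjusted p = 0.0123, limma). Of 4 pericyte markers, 2 were lower and 0 higher in anagen controls, beside 21.9% and 23.8% of all genes. Kcnj8, 1 of these 4, was picked after its values were seen and does not stand for the list. It stood at 683 to 1234 in telogen controls, 234, 112 and 69.9 at P24 and 252, 405 and 26.9 at P28, where P28 control 2 was again the highest. The summed level of the 4 markers was 6326 to 7996 at P20, 4246 to 6692 at P24, 2825 to 6175 at P28 and 6997 to 9072 at P60. The sums at P20 and P24 thus overlapped. None of the 4 was at 0 in all libraries, and their part in the Ndufa4l2 values was not tested. Between the genotypes Ndufa4l2 did not pass, and at P28 its sign changed with the library left out, from -0.03 ± 1.07 (SE) over 3 controls to 1.07 without P28 control 2.

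**Figure D5:**
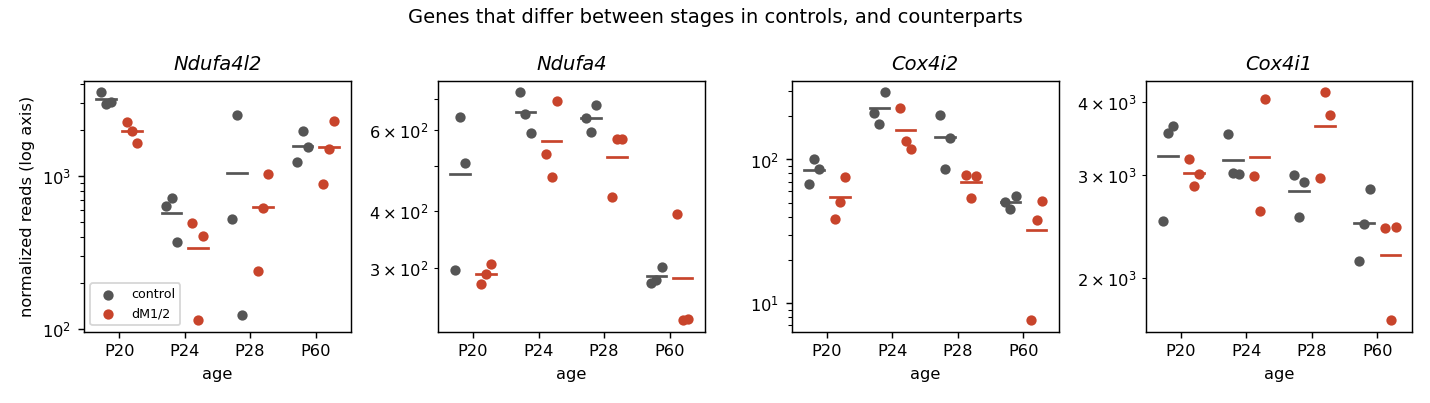
Normalized reads (logarithmic vertical axes, a separate scale for each gene) of Ndufa4l2, Ndufa4, Cox4i2 and Cox4i1 in each of 24 libraries by age, controls in grey and dM1/2 in red, bars at arithmetic group means (n = 3). In controls Ndufa4l2 is high at P20 and P60 and low in anagen except for 1 P28 library, Ndufa4 and Cox4i2 are higher in anagen, and Cox4i1 spans 2145 to 3648 over all control libraries.

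Between the telogens, 9 of 88 chain genes were lower at P60 than at P20 in controls and 0 were higher, beside 6.45% of all genes lower and 6.12% higher. Of these, 5 belong to complex V (Atp5d, Atp5e, Atp5f1, Atp5g1 and Atp5g3), and the others were Ndufa4l2, Cox6c, Cox7b and Sdhb. Ndufa4l2 fell by 1.03 in log2 (SE 0.17, adjusted p = 0.00634, limma), and Atp5g1 went from 603, 1031 and 858 to 437, 491 and 461 normalized reads (-0.81 ± 0.19 (SE), adjusted p = 0.0261). Atp5g3 (-0.65 ± 0.15 (SE), adjusted p = 0.0246) and Atp5e, the epsilon subunit (-0.79 ± 0.19 (SE), adjusted p = 0.0291), came next. The count varied with the library left out: it was 43 without P20 control 1, all lower, and 1 or 2 without any other of the 6 libraries. In dM1/2, 1 of 88 genes was lower at P60 and 0 higher, beside 2.35% and 3.96% of all genes. That gene was Atp5g1, at 669, 715 and 725 at P20 and 437, 367 and 478 at P60 (-0.72 ± 0.15 (SE), adjusted p = 0.0351).

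The muscle isoforms remained low throughout. Cox7a1 stood at 5.03 to 30.3 normalized reads in telogen libraries and 5.41 to 30.1 in anagen libraries, and its genotype difference at P28 was -0.31 ± 0.66 (SE) (adjusted p = 0.757, limma). The summed level of 6 skeletal muscle markers was at most 120.2 normalized reads in any library. At this low level, 1 of the 2 tested at P24 was higher in dM1/2 (log2 fold change 1.74, adjusted p = 0.0327, limma). The 1 tested at P28 was also higher (2.94, adjusted p = 0.0016, limma).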

How the data were processed

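The deposited tables give, for 24 libraries, DP cell reads divided by a DESeq2 size factor, a signal per gene that the authors normalized over all libraries together. Per the labels and methods, ribosome-depleted RNA was sequenced as 50-base single reads, trimmed with Trimmomatic, aligned with TopHat2 to mm10 and counted with HTSeq on GRCm38.p4, and the strand setting is not given in the sources used here. Whole reads were recovered by multiplying by the size factor, and 100% of the values came out whole within 0.001. The authors' own fold change and p-value columns were not used. No per-sample column was left unmapped.

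Differences were fitted with limma 3.58.1 on log2(value + 1), for genes that averaged 10 or more normalized reads over the fitted libraries, with Benjamini-Hochberg adjustment over all genes and a threshold of 0.05. Each fit used only the libraries of its comparison. Fold changes are on the log2(value + 1) scale. edgeR 4.0.16 and DESeq2 1.42.0 on the recovered reads were alternatives, with another pseudocount, other filters, TMM scaling, a replicate block, thinning to 8171944 reads and each library left out. Scripts were tested on simulated data. Levels per kb use the length of the principal GENCODE transcript. Total reads per library were lowest at P60. p-values measure the spread between biological replicates as labelled.

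The genes, the gene lists and the comparisons were chosen with earlier results of these data known. Genes were named as those of each complex with the largest called rise and fall at P24 and P28, up to 4 with the smallest adjusted p in each comparison between ages, the isoform pairs of complexes I and IV, and the catalytic or cofactor subunits. From other lists up to 3 genes past the threshold at P28 with the largest fold change were named, and Gabpa, Nrf1, Kcnj8, Ndufaf4 at P28, the marker lists and the promoter motifs were added after their values were seen. Exons of 32 of the 92 genes overlap another gene, 5 of them on the same strand, and such reads may be shared.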

Additional observations from a re-analysis of the deposited data

Results flagged for a closer look

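The effect of genotype differed between stages for 28 of 88 tested chain genes by the test of that difference (limma over all 24 libraries). Over all genes, 30.2% passed in either direction, so the chain genes passed about as often as other genes. All 28 had the more positive effect in anagen, where all genes gave 16.1% in that direction and 14.1% in the other. The difference, anagen effect minus telogen effect on the log2 scale, was 2.81 for Cox6b2, 1.01 for Uqcrfs1, 1.03 for Cox7a2l and 1.03 for Cox5a, the 4 genes with the smallest adjusted p. Stage cannot be told apart from sex and depth in this design. With 3 libraries per group, no formal outlier test was run.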

How the results depend on the processing

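Direction held for every count above 0 under the other tests, scalings and filters, except that single genes were lower at P28 with DESeq2, with the block and without the library labelled P28 control 2, and at P24 after thinning. DESeq2 on recovered reads raised the count to 2 genes at P20, 1 from P24 to P28 in dM1/2 and 20 from P20 to P60 in controls. At an adjusted p under 0.01 the counts were 2 at P24, 5 at P28, 11 for anagen against telogen effects, 1 and 0 from P20 to P60 in controls and dM1/2, and 5 for anagen against telogen in controls. Leaving out 1 library gave 0 to 27 genes at P20, 2 to 6 at P24, 5 to 29 at P28, 16 to 40 for the stage difference of the effect, 1 to 43 and 0 to 2 from P20 to P60 in controls and dM1/2, and 11 to 20 between stages in controls. Shares of all genes in these reduced fits are not given, and the cause was not tested.

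Same-numbered libraries of control and dM1/2 did not deviate together (correlations of 0.21, 0.06 and 0.12 at P20, -0.16, 0.03 and -0.39 at P24, -0.17, 0.02 and -0.24 at P28, 0.30, 0.03 and 0.15 at P60), so the number was not taken as a pairing. With a replicate block the counts were 1 at P20, 2 at P24, 9 at P28, 1 from P24 to P28 in dM1/2, and 3 and 0 from P20 to P60 in controls and dM1/2.

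Some named genes, none past the threshold, changed sign in log2 fold change. Leaving out 1 library gave -0.187 to 0.130 for Cox4i1, -0.0032 to 0.341 for Cox6a1, -0.0615 to 0.243 for Sdhb and -0.0918 to 0.196 for Uqcrc1 at P24, and -0.775 to 0.248 for Cox7a1 and -1.10 to 1.07 for Ndufa4l2 at P28. Cox4i1 at P24 was 0.0122 with DESeq2 and with edgeR on DESeq2 size factors, and after thinning Uqcrc1 was -0.0104 at P24 and Cox7a1 0.172 at P28. With every library thinned to the shallowest depth the counts were 6 at P24 and 15 at P28.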
